A study of Mus musculus with 13 samples.

Results

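The genes described here are Runx1, Runx2, Runx3 and Cbfb, which together encode the core-binding factor family. They were taken from the deposited table by gene symbol, 4 of its 12963 genes, and all 4 passed the filter on low values that left 12667 genes for testing. A Runx protein binds DNA through its Runt domain, and CBFβ, which does not touch DNA itself, binds the Runt domain and strengthens that contact. In T cells RUNX1 is known for its role in thymocyte development, RUNX3 for silencing Cd4 in the CD8 lineage and for cytotoxic genes, and the FOXP3 protein of regulatory T (Treg) cells forms complexes with RUNX1 and CBFβ. RUNX2 is best known as the master factor of bone formation, and it is also made in some activated and memory T cells.

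The RNA came from T cells sorted from B16-F10 melanomas, tumors of a mouse line implanted subcutaneously in Foxp3-EGFP-DTR animals. Every animal carried this allele, in which the Foxp3 gene drives EGFP and the human diphtheria toxin receptor, and animals received either PBS or diphtheria toxin (DTx), which removes Foxp3-expressing cells. Of the 13 libraries, 7 came from animals given PBS: 3 of Treg cells (called Treg PBS), 2 of CD4+ conventional T cells, or Tconv (CD4 PBS), and 2 of CD8+ T cells (CD8 PBS). The other 6 came from animals given DTx, with 3 libraries each of CD4+ Tconv (CD4 DTx) and CD8+ T cells (CD8 DTx). According to the study's methods the mice were adults of both sexes and the replicates biological. A figure legend of the study says that replicates were taken on separate days. The labels give no age and do not say which day a replicate number stands for or whether a replicate was 1 animal or a pool. The study's methods describe CD4+ Treg cells as sorted GFP-positive and CD4+ Tconv as GFP-negative, so Foxp3 itself is set by the gate. Sorted populations are mixtures, so fewer cells of a type and less RNA per cell cannot be told apart.

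Values are given as normalized reads, the deposited unit. One read was worth between 0.661 and 1.37 of these units, libraries held between 15947556 and 34140486 reads, and 3 reads, the detection floor used here, came to between 1.98 and 4.10 units. The lineage genes matched the labels: Foxp3 lay between 1178 and 1896 in Treg PBS and at 12.1 or below elsewhere, and Cd8a and Cd8b1 together reached at least 63851 in the CD8 groups and at most 3662 in the others. Cd4 was at 10595 or above in the CD4 and Treg groups and at 413 or below in the CD8 groups. Replicate 3 of every group came from a male mouse and the other 8 libraries from females, as read from Xist and Ddx3y. Fos and Jun, which respond within minutes to handling, were also highest in replicate 3 of every group, most of all in the PBS groups (Fos 38019 to 54781, against at most 5052 in the other PBS libraries).

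One promoter of each of the 3 Runx genes carries the same short sequence, shown here because it is written in the motif that Runx proteins read. The Runx motif was searched as ACCACA on either strand in the 300 bases around each start (250 before, 50 after) in the RefSeq promoter table, build GRCm38.p6. All 4 members matched that table, with 2 starts each for Runx1 and Runx3 and 1 each for Runx2 and Cbfb. The windows of 30 bases are written 5′ to 3′ on the strand of the gene, with each motif in capitals.
Runx1, chr16:92826025-92826054, minus strand: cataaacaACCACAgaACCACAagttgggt
Runx2, chr17:44814583-44814612, minus strand: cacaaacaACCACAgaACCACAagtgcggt
Runx3, chr4:135120503-135120532, plus strand: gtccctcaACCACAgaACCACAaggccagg
The 3 windows shared an unbroken run of 18 bases. In Runx1 the window covers bases 21 to 50 of the transcribed side of the start and in Runx2 bases 16 to 45, whereas in Runx3 it lies upstream, from -142 to -113. A single ACCACA was found in 16.8% of 32851 promoters of this length, and the tandem ACCACANNACCACA in 7 promoters (0.0213%), of 7 genes, 3 of which are Runx1, Runx2 and Runx3. The tandem counted has the same gap as the 3 windows above, so the count describes that pattern and does not test enrichment. The second starts of Runx1 and Runx3 and the promoter of Cbfb held no ACCACA.

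The full 250 bases before the Runx3 start are given below as context for the tandem, because Runx3 had the highest level per length of the Runx genes; they held 2 matches, both in the tandem.
Runx3, chr4:135120395-135120644, plus strand: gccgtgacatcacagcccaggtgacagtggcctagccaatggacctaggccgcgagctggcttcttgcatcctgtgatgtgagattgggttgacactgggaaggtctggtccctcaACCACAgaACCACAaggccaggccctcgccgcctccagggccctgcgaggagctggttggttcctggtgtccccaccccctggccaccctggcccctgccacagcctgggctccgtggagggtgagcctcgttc
A match describes letters only and was not tested for binding, and the table does not say which start these cells use.

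Cbfb and Runx3 transcripts were the most abundant of the family. Per kilobase of exon (the union of exons in GENCODE M21), Cbfb stood between 944 normalized reads in CD4 PBS and 1357 in CD8 DTx, and Runx3 between 387 in CD4 PBS and 976 in CD8 DTx. Runx1 lay between 93.1 in CD8 PBS and 254 in CD4 PBS. Runx2 had the widest range in fold between group means, from 7.45 per kilobase in CD4 PBS to 164 in CD4 DTx. Cbfb was above Runx3, and Runx3 above Runx1, in all 5 groups. Runx1 was above Runx2 in each group but CD8 DTx, where the mean of Runx2 (157) was above that of Runx1 (144). That last order turned with the length of the longest transcript in place of the union (173 for Runx2 and 183 for Runx1).

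**Figure D1:**
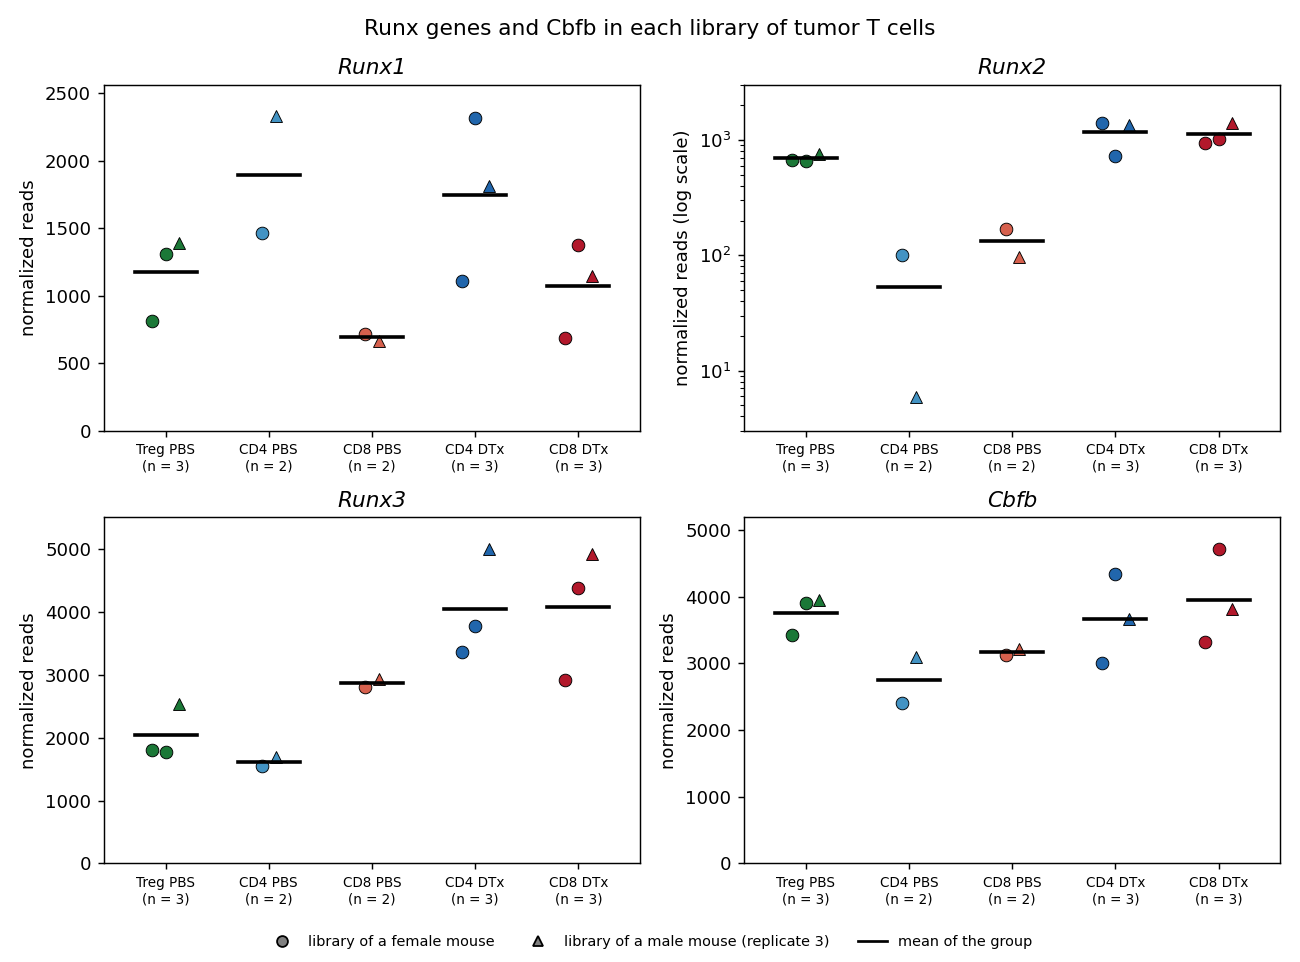
Normalized reads of Runx1, Runx2, Runx3 and Cbfb in each of the 13 libraries, by group; bars are group means, circles female and triangles male mice, and the Runx2 axis is logarithmic. Runx2 sat at 170 or below in the 4 PBS libraries of CD4 and CD8 cells and at 655 or above in the other 9 libraries, while Runx3 was highest in the DTx groups.

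Runx2 transcripts separated the groups most sharply. In Treg PBS the 3 libraries held 670, 655 and 758 normalized reads of Runx2 (694 ± 55.6, SD, n = 3). The CD4 PBS libraries held 99.8 and 5.94, which rest on 73 and 9 reads, and the CD8 PBS libraries held 170 and 97.3. These 4 libraries were the lowest of the 13 and lay apart from all others. After Treg ablation the CD4 Tconv libraries held 1398, 725 and 1358 (1160 ± 378, n = 3) and the CD8 libraries 935, 1017 and 1398 (1117 ± 247, n = 3). Each DTx library of CD4 or CD8 cells was thus above every PBS library of its own cell type.

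The tests were made in 8 comparisons: Treg PBS with CD4 PBS and with CD8 PBS, each DTx group with the PBS group of its cell type and with Treg PBS, and CD8 with CD4 cells within each treatment. In Treg PBS against CD4 PBS, Runx2 was the single member of the 4 that passed the test, beside 20.4% of all genes tested. The difference was 4.71 on the log2(value + 1) scale (SE 0.80, limma adjusted p = 0.00151). Its size depended on which CD4 PBS library was kept, because the 2 libraries of that group lay far apart: it was 2.78 with replicate 2 as the lone CD4 PBS library and 6.64 with replicate 3, and the call held in all 13 fits that left out a library. Within female mice (2 libraries against 1) the ratio was 6.64, and within male mice (1 against 1) it was 128. The male CD4 PBS library held 9 reads of Runx2.

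In CD4 DTx against CD4 PBS, Runx2 and Runx3 passed, 2 of the 4 members beside 12.7% of all genes. Runx2 rose by 5.40 on the log2 scale (SE 0.80, limma adjusted p = 9.53e-04). The value was 3.47 or 7.32 according to the CD4 PBS library kept, and the call again held in all 13 of those fits. In females (2 libraries against 1) the ratio was 10.6 and in males (1 against 1) 228. A change of over 4-fold as well as an adjusted p under 0.05 was met by Runx2 alone of the 4 members, beside 6.85% of all genes here, 10.2% in the comparison of Treg PBS with CD4 PBS and 5.46% in that of CD8 DTx with CD8 PBS. Both Runx2 calls against CD4 PBS missed the threshold when the spread was estimated from the compared groups alone (limma adjusted p = 0.0769 here and 0.0527 for Treg PBS).

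In CD8 DTx against CD8 PBS, Runx2 alone passed, beside 10.9% of all genes, with a difference of 3.09 (SE 0.80, limma adjusted p = 0.0295). This call was less stable. It was lost without CD8 PBS replicate 2 (adjusted p = 0.0788) or 3 (0.261), without CD8 DTx replicate 1 (0.0650) or 2 (0.0764), and in female libraries alone (0.0868). The values themselves stayed between 2.51 and 3.48 in these fits. Within each sex the ratio was 5.74 (females, 2 libraries against 1) and 14.4 (males, 1 against 1). The direct test of whether DTx moved Runx2 more in CD4 than in CD8 cells gave 2.31 (SE 1.14, limma adjusted p = 1), so no difference between the cell types was shown.

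The Runx2 group means in ablated animals were above that of Treg cells, without passing the test. Every CD8 DTx library (935 or above) was above every Treg PBS library (758 or below). The CD4 DTx libraries overlapped those of Treg PBS. CD4 DTx was above Treg PBS by 0.68 (95% interval -0.88 to 2.24, limma adjusted p = 0.665) and CD8 DTx by 0.67 (-0.90 to 2.23, adjusted p = 0.715). The intervals allow differences of over 4-fold upward, so equality was not shown. In the order of group means, CD4 DTx, CD8 DTx, Treg PBS, CD8 PBS and CD4 PBS, no neighbouring pair passed the test. Treg PBS against CD8 PBS came closest, at 2.42 (SE 0.80, limma adjusted p = 0.0548), and it passed under a pseudocount of 10 (adjusted p = 0.0180) and in DESeq2 (0.00696). None of the 4 members was called in that comparison by limma, beside 18.7% of genes, with 4278 genes at an unadjusted p under 0.05. Comparisons that name the same group share its libraries and are not independent of each other.

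Of the proliferation, melanocyte and erythroid gene sums, only the proliferation sum was lowest in the PBS Tconv libraries, as Runx2 was. That sum was higher in Treg PBS than in CD4 DTx, the reverse of the Runx2 group means. The sum of 6 proliferation genes, all in the table, was 622 to 1431 in CD4 PBS and 1022 to 4083 in CD8 PBS. It was 12657 to 33371 in Treg PBS, 5921 to 9254 in CD4 DTx and 12885 to 28000 in CD8 DTx. The sum of 4 melanocyte genes (of 7 listed) was 727 to 1197 in Treg PBS, 435 to 448 in CD4 PBS, 171 to 629 in CD8 PBS and between 60.7 and 170 in the DTx groups, so it did not follow Runx2 after ablation. The sum of 3 erythroid genes (of 5 listed) lay between 948 and 6570 in the 7 PBS libraries, and after DTx between 0 and 1175 in CD4 and 16.6 and 791 in CD8 libraries.

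Some markers of other immune cells also differed between PBS and DTx libraries. The sum of 8 macrophage and monocyte genes (of 10 listed) lay between 1132 and 1394 in CD4 PBS and between 90.7 and 2134 in CD4 DTx, and for CD8 cells between 673 and 2018 after PBS and 1828 and 2758 after DTx. Of these genes Cd68 went from 273 and 124 in CD8 PBS to 1055, 1034 and 607 in CD8 DTx, and Itgam from 205 and 13.3 to 513, 1554 and 1606. The sum of 4 plasmacytoid dendritic cell genes was 3646 to 5100 in CD8 PBS and at most 290 in the other groups. In CD8 PBS this sum was nearly all Ccr9 (3578 and 5035). There Siglech was at 45.3 or below, Tcf4 at 37.7 or below and Spib at 0. The sum of 4 NK cell genes, some of which cytotoxic T cells also make, lay between 1489 and 3047 in CD4 PBS and 22412 and 43847 in CD4 DTx, between 31625 and 37937 in CD8 PBS and 75098 and 134108 in CD8 DTx, and between 11174 and 39095 in Treg PBS. The NK sum was mostly Nkg7 in every library. Treg PBS libraries held 39068, 17413 and 11160 of Nkg7, with Ncr1 at 1.18 or below. CD4 DTx libraries held 40445, 21458 and 23986 of Nkg7, with Ncr1 at 115 or below. For CD8 DTx, Nkg7 was 64989 or above, while Ncr1 ranged from 17.6 to 2147. Klrd1 was also higher in each DTx library than in the PBS libraries of its cell type. The part of cell cycling and of other cell types in the differences of the 4 members was not tested.

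Runx2os1, a noncoding gene annotated on the strand opposite Runx2 and named here after its values were seen, was at 0 in both CD4 PBS libraries and at 8.50 and 0 in CD8 PBS. It was at 36.5 to 41.5 in Treg PBS, 30.3 to 119 in CD4 DTx and 35.0 to 55.4 in CD8 DTx. Against the floor of 3 reads per library, Treg PBS was at least 13.1-fold higher than CD4 PBS and CD4 DTx at least 19.8-fold. In libraries where it was above 0 it amounted to between 2.23% and 8.49% of Runx2. The strand setting of the counting is not given in the sources used here, so reads of this gene and of Runx2 cannot be told apart where they overlap.

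Runx3 transcripts were highest after Treg ablation in both conventional cell types. The CD4 PBS libraries held 1546 and 1688 normalized reads of Runx3, the Treg PBS libraries 1799, 1773 and 2542, and the CD8 PBS libraries 2800 and 2939. CD4 DTx held 3369, 3787 and 5008 (4055 ± 852, n = 3) and CD8 DTx 2918, 4384 and 4922 (4075 ± 1037, n = 3). All CD4 DTx libraries were above all PBS libraries, whereas the lowest CD8 DTx library fell between those of CD8 PBS. CD4 PBS, in turn, lay below every Treg PBS and CD8 PBS library.

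In CD4 Tconv cells Runx3 rose 2.51-fold in the group means (4055 against 1617), a difference of 1.31 on the log2 scale (SE 0.26, limma adjusted p = 0.00551). The rise was 2.32-fold within females (2 libraries against 1) and 2.97-fold within males (1 against 1). The call was lost without CD4 PBS replicate 2 (1.24, adjusted p = 0.0551) and in female libraries alone (1.21, adjusted p = 0.108). In CD8 cells the means were 4075 after DTx and 2870 after PBS, a difference of 0.47 (SE 0.26, adjusted p = 0.264), which did not pass. With the replicate number as a block it was 0.61 and passed (limma adjusted p = 0.0336). The test between the cell types gave 0.84 (SE 0.36, limma adjusted p = 1), beside 513 genes at an unadjusted p under 0.05 and 6 genes called (0.0474%) in that interaction.

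Runx3 was also above Treg cells in both ablated groups, with 1 of 4 members passing in each comparison, beside 7.91% of genes for CD4 DTx and 8.6% for CD8 DTx. Both differences were 0.99 on the log2 scale (SE 0.23, limma adjusted p = 0.0210 for CD4 DTx and 0.0191 for CD8 DTx). Both calls were lost without Treg PBS replicate 1 or 2 and further without CD4 DTx replicate 3 for the CD4 cells (adjusted p = 0.0852) and without CD8 DTx replicate 2 for the CD8 cells (0.0746) or 3 (0.0599), while the difference itself stayed at 0.83 or more. Within females (2 libraries against 2) CD4 DTx was 2.003-fold Treg PBS and within males (1 against 1) 1.97-fold.

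Before ablation Runx3 was higher in CD8 than in CD4 libraries, without passing the test. CD8 PBS exceeded CD4 PBS by 0.83 (SE 0.28, limma adjusted p = 0.358), and the ratio of means was 1.81 in the female and 1.74 in the male pair. None of the 4 members was called in this comparison by limma or edgeR, in which 1.08% of genes were called by limma and 827 genes were at an unadjusted p under 0.05, and DESeq2 called Runx1. After ablation the CD4 and CD8 values of Runx3 overlapped, with a difference of -0.01 (95% interval -0.51 to 0.49, adjusted p = 1), and again none of the 4 members passed in limma, edgeR or DESeq2, beside 1.64% of genes called and 1443 at an unadjusted p under 0.05. A fit that blocked on the replicate number called 414 genes there in place of 208, and still no member. CD8 transcripts in the CD4 DTx libraries came to 0.365%, 2.32% and 3.61% of the mean of the CD8 DTx libraries.

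Runx1 varied widely between replicates in each group but CD8 PBS. It was at 1465 and 2327 normalized reads in CD4 PBS (1896 ± 610, n = 2) and at 1109, 2317 and 1815 in CD4 DTx (1747 ± 607, n = 3). Treg PBS held 815, 1311 and 1389 (1172 ± 311), CD8 DTx 684, 1378 and 1148 (1070 ± 354), and CD8 PBS 719 and 668 (694 ± 36.4, n = 2). Replicate 1, where a group had one, was the lowest of its group in each of the 3 groups.

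None of the 8 comparisons passed the limma test for Runx1 without a replicate block. Treg PBS lay below CD4 PBS, with no overlap (-0.69 on the log2 scale, SE 0.38, limma adjusted p = 0.216), and CD8 PBS below CD4 PBS (-1.41, SE 0.42, adjusted p = 0.231). This last difference was called by DESeq2 on the recovered reads (-1.44, adjusted p = 0.0418). CD4 DTx against CD4 PBS was -0.14 (95% interval -0.97 to 0.68, adjusted p = 0.842), and CD8 DTx against CD8 PBS was 0.57 (-0.26 to 1.40, adjusted p = 0.362). The CD4 DTx value changed sign, to 0.13, in female libraries alone, to 0.19 without CD4 PBS replicate 3 and to 0.15 without CD4 DTx replicate 1, so no direction can be read from it. With the replicate number as a block, Runx1 passed in 3 of the 8 comparisons: CD8 DTx against CD8 PBS (0.84, limma adjusted p = 0.0320), CD8 PBS against CD4 PBS (-1.41, 0.0153) and Treg PBS against CD8 PBS (0.995, 0.0103). In the order of means from CD4 PBS through CD4 DTx, Treg PBS and CD8 DTx to CD8 PBS, the libraries of each neighbouring pair overlapped.

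Cbfb, the shared partner, had the smallest fold between its lowest and highest group means of the 4. In Treg PBS it had 3423, 3901 and 3954 normalized reads, while the CD4 PBS libraries had 2411 and 3093 and those of CD8 PBS 3128 and 3214. CD4 DTx held 2999, 4341 and 3670 and CD8 DTx 3323, 4717 and 3821. The group means thus ran from 2752 ± 483 in CD4 PBS (n = 2) to 3954 ± 706 in CD8 DTx (n = 3). None of the 8 comparisons passed the limma test for Cbfb without a replicate block, and in the order CD8 DTx, Treg PBS, CD4 DTx, CD8 PBS and CD4 PBS no neighbours did. Treg PBS against CD4 PBS came to 0.46 (SE 0.21, limma adjusted p = 0.146), and to 0.57 with the block, where it passed (0.0332), and all Treg PBS libraries were above both CD4 PBS libraries.

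**Figure D2:**
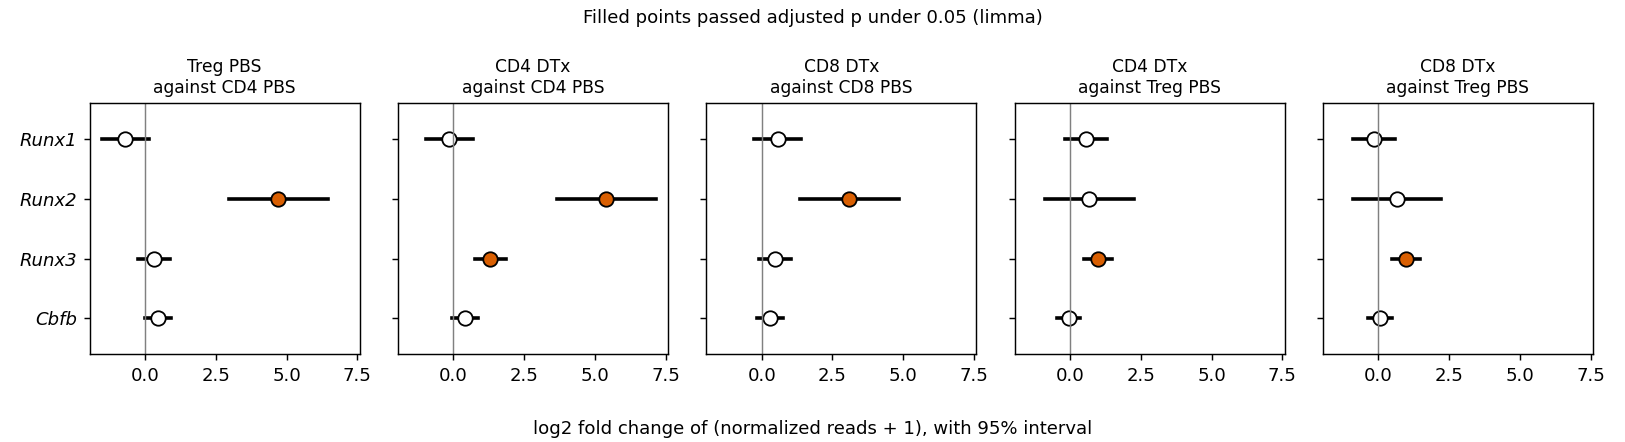
Log2 fold changes of (normalized reads + 1) with 95% intervals for the 4 genes in 5 comparisons from limma; filled points passed an adjusted p under 0.05. Runx2 was filled in the 3 comparisons with a PBS Tconv group (4.71, 5.40 and 3.09), Runx3 in CD4 DTx against CD4 PBS (1.31) and in both comparisons with Treg PBS (0.99), and Runx1 and Cbfb in none.

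The make-up of the Runx transcripts differed between groups. Shares are of the summed reads of the 3 Runx genes, are not corrected for length, and are compared for 1 gene at a time. Runx1 took 52.5% ± 7.62 of the sum in CD4 PBS (SD, n = 2) and 29.8% ± 5.12 in Treg PBS (n = 3), 25.0% ± 7.91 in CD4 DTx (n = 3), 18.8% ± 1.04 in CD8 PBS (n = 2) and 16.9% ± 2.95 in CD8 DTx (n = 3). Runx2 took 1.68% ± 2.16 in CD4 PBS and 3.62% ± 1.40 in CD8 PBS, against 18.0% ± 2.16 in Treg PBS, 17.0% ± 6.60 in CD4 DTx and 18.1% ± 2.85 in CD8 DTx. Runx3 took 77.6% ± 2.44 in CD8 PBS and 65.0% ± 0.830 in CD8 DTx, and 45.8% ± 5.46, 52.1% ± 4.09 and 58.0% ± 2.94 in CD4 PBS, Treg PBS and CD4 DTx.

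The Runx1 share of CD4 Tconv cells was lower after DTx in each library, with a difference of -27.5 percentage points in the means (two-sided exact permutation p = 0.1). The Runx2 share of CD8 cells was higher by 14.5 points and the Runx3 share lower by 12.7 points, each without overlap (exact permutation p = 0.1). With 3 against 2 libraries there are 10 labellings and 0.1 is the smallest p possible, so these shares cannot pass a threshold of 0.05.

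**Figure D3:**
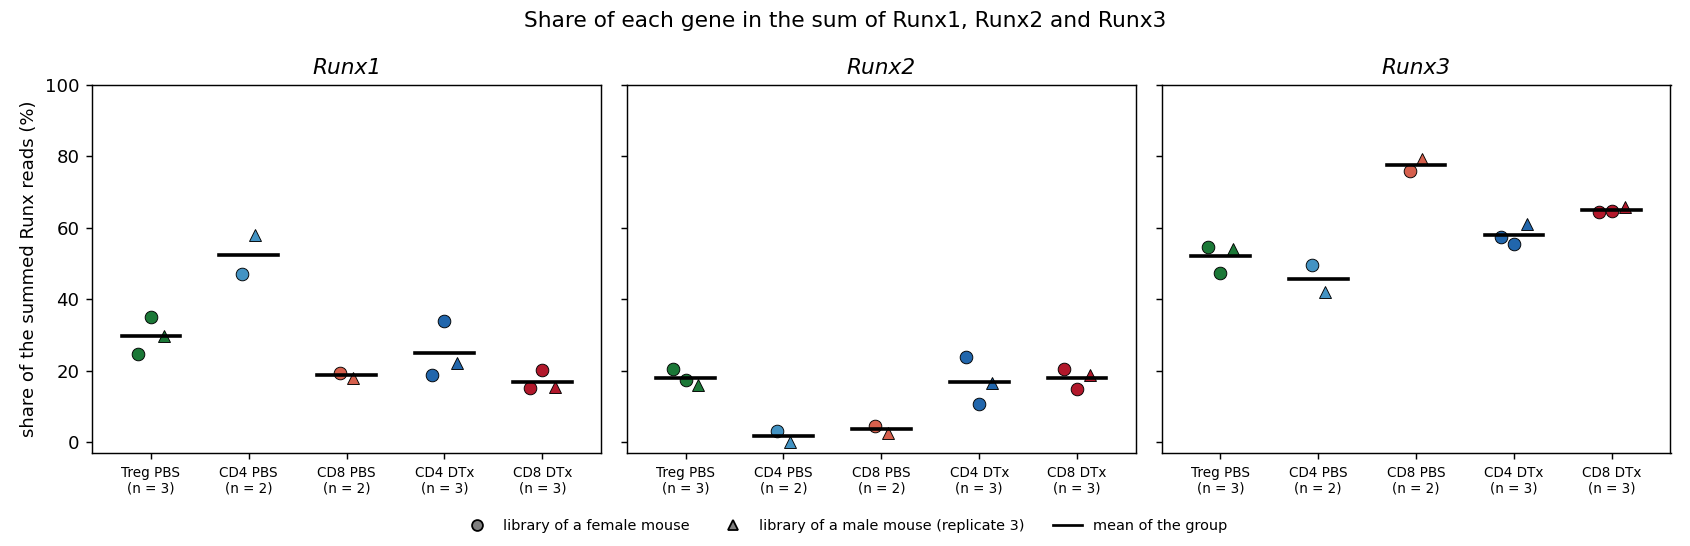
Share of Runx1, Runx2 and Runx3 in their summed reads (percent) in each library, by group; bars are group means, circles female and triangles male mice. Runx1 held between 47.1% and 57.9% in the CD4 PBS libraries and at most 35.1% elsewhere, and Runx2 at most 4.61% in the PBS Tconv libraries and at least 10.6% elsewhere.

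The sum of the Runx transcripts was higher in most DTx libraries. The 3 Runx genes together held between 3110 and 4689 normalized reads in the PBS libraries and between 4537 and 8181 in the DTx libraries. Per summed Runx read, Cbfb stood at 0.769 to 1.04 in the 7 PBS libraries and at 0.449 to 0.732 in the 6 DTx libraries, without overlap between the treatments. The ranges of the sum overlapped, through CD8 DTx replicate 1 (4537) and Treg PBS replicate 3 (4689), and neither measure was tested.

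Among 25 genes listed as cofactors and modifiers of Runx proteins, 23 were in the table and all 23 were tested. In Treg PBS against CD4 PBS 4 were lower and none higher in limma (beside 6.91% and 13.5% of all genes), and the median of the list was -0.33, beside 0.01 over all genes. No gene of the list was higher in edgeR or DESeq2 either, nor higher at an unadjusted p under 0.05. The count of lower genes ran from 1 (without CD4 PBS replicate 3) to 8 (without CD8 DTx replicate 3) when 1 library was left out, and it was 8 under quantile normalization. Smurf2, a ubiquitin ligase that acts on Runx proteins and on TGF-β signalling, went from 1759 and 1806 normalized reads in CD4 PBS to 281, 392 and 671 in Treg PBS (-2.08, SE 0.39, adjusted p = 0.00283). Tle4 and Aes, of the Groucho family of corepressors, fell (-1.83, adjusted p = 0.00445, and -0.65, 0.0309), as did Ets1, a DNA-binding partner of RUNX1 (-1.29, 0.0396). All 3 of these calls were lost in female libraries alone. Without 1 library, Smurf2 kept its call in 13 of 13 fits, Tle4 in 12 (lost without CD4 PBS replicate 3, adjusted p = 0.0605), Aes in 9 and Ets1 in 5.

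After ablation 1 cofactor was higher and 1 lower in each cell type, and they were the same 2 genes, with list medians of -0.35 in CD4 and -0.38 in CD8 cells, beside -0.04 and -0.03 over all genes. Over all genes 8.64% were higher and 4.08% lower in CD4 cells and 7.4% and 3.47% in CD8 cells, so 1 of 23 in each direction does not set the list apart. With the replicate block 2 were higher and 2 lower in CD8 cells. Cbfa2t3, which encodes ETO2, a corepressor of the family that is fused to RUNX1 in leukemia, was at 0 in all 4 PBS libraries of CD4 and CD8 cells and at 0.847, 0 and 0 in Treg PBS. It reached 141, 275 and 242 in CD4 DTx and 72.1, 180 and 71.3 in CD8 DTx. Against the floor, these were at least 72.2-fold and at least 28.2-fold higher (limma adjusted p = 1.82e-04 and 9.86e-04). Cbfa2t3 thus had the DTx libraries high and the Treg PBS libraries at the floor, unlike Runx2, which was high in both.

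Smurf2 fell in both, from between 1759 and 1806 to between 580 and 740 in CD4 cells (-1.50, SE 0.39, limma adjusted p = 0.0255) and from 1620 and 1593 to 341, 338 and 730 in CD8 cells (-1.87, SE 0.39, adjusted p = 0.0103). In female libraries alone the Smurf2 calls after DTx were lost (adjusted p = 0.0725 and 0.0579), as was that of Cbfa2t3 in CD8 cells (0.0601), while the differences kept their direction. The Smurf2 call was also lost without CD4 PBS replicate 2 or 3 or CD4 DTx replicate 1 or 2 in CD4 cells, and without CD8 PBS replicate 2 or 3 in CD8 cells.

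**Figure D4:**
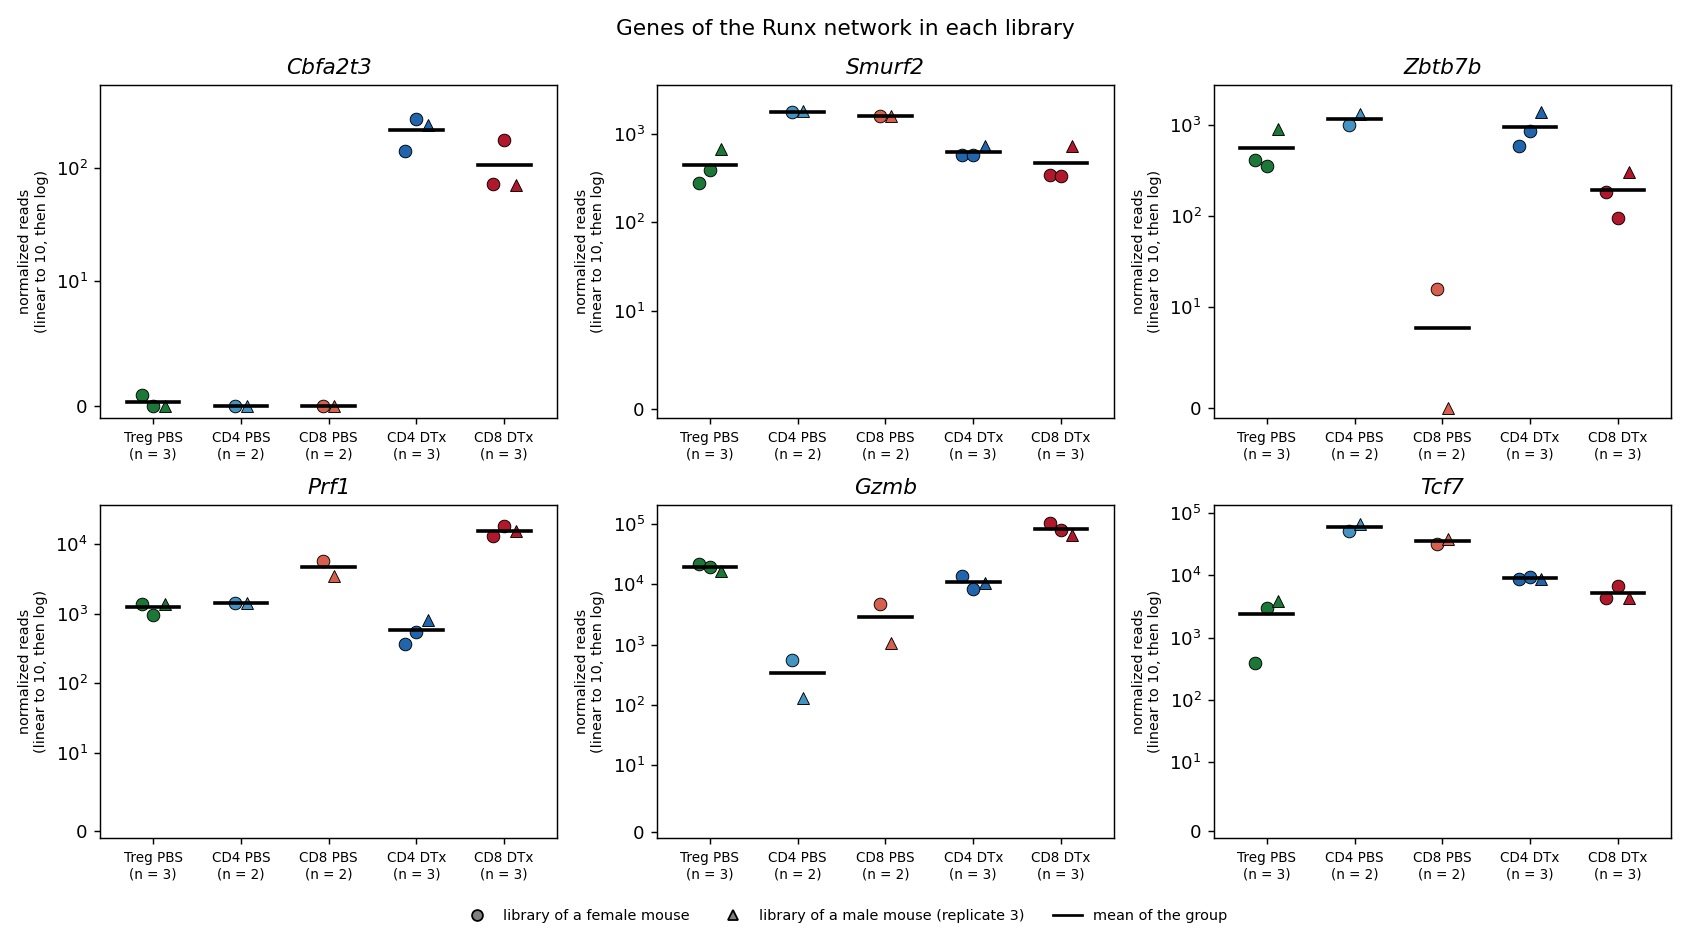
Normalized reads of 6 named genes in each library, on an axis that is linear to 10 and logarithmic above; bars are group means, circles female and triangles male mice. Cbfa2t3 was at 0 in the PBS Tconv libraries and at 71.3 or above after DTx, Smurf2 was highest in the PBS Tconv libraries, and Prf1 after DTx was lower in CD4 and higher in CD8 cells.

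Of 22 genes reported to be bound or regulated by Runx proteins in T cells, all tested, 7 were higher and 3 lower in Treg PBS against CD4 PBS (median 0.53, beside 0.01 over all genes), where 13.5% and 6.91% of all genes were. In CD4 cells after DTx 11 were higher and 2 lower (median 1.77, beside -0.04), where 8.64% and 4.08% of all genes were, and in CD8 cells 9 were higher and 1 lower (median 1.72, beside -0.03), where 7.4% and 3.47% were. The count of higher genes in CD8 cells fell to 3 without CD8 PBS replicate 3 and to 1 in female libraries alone or with the compared groups alone. In CD4 cells it fell to 7 without CD4 PBS replicate 3, to 6 with the compared groups alone and to 2 in female libraries alone, and no gene was called lower without either CD4 PBS library. In the Treg comparison 1 gene in place of 3 was lower without CD4 PBS replicate 2. The list was put together with earlier results of these data known and it holds many activation genes, so the counts describe it only. Several genes of the list are themselves sort markers (Cd4, Cd8a, Cd8b1 and Foxp3), which the gates set.

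Gzmb, Ifng, Il2ra and Il4 rose after ablation in both cell types. Gzmb, the gene of granzyme B, went from 547 and 131 to 13630.3, 8324 and 10438 normalized reads in CD4 cells (5.30, SE 0.60, limma adjusted p = 1.88e-04) and from 4779.5 and 1072 to 65338 or more in CD8 cells (5.18, SE 0.60, 5.33e-04). Ifng rose by 2.06 in CD4 (SE 0.56, adjusted p = 0.0307) and 2.62 in CD8 cells (SE 0.56, 0.0116), and Il2ra, the alpha chain of the IL-2 receptor, by 4.42 (2.39e-04) and 3.63 (0.00161). Il4, which RUNX3 is known to silence in type 1 cells, rose in CD4 cells from 1.37 and 0.661 to 256, 718 and 442 (7.78, SE 1.03, adjusted p = 5.00e-04). In CD8 cells Il4 went from 0 in both libraries to 13.9, 40.4 and 16.2, at least 6.15-fold higher (adjusted p = 0.0167). Csf2, the gene of GM-CSF, rose in CD4 cells by 5.82 (SE 1.06, adjusted p = 0.00344). Gzmb and Il2ra kept their calls in 13 of 13 fits without 1 library in both cell types, and Il4 and Csf2 did in CD4 cells, though the Csf2 difference was 8.08 without CD4 PBS replicate 2 and 3.57 without CD4 PBS replicate 3. Ifng lost its call without either CD4 PBS library or CD4 DTx replicate 1 or 3, and without either CD8 PBS library, and Il4 in CD8 cells without either CD8 PBS library or CD8 DTx replicate 2.

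Prf1, the gene of perforin, moved apart in the 2 cell types. It fell in CD4 cells from 1427 and 1404 to 360, 546 and 819 normalized reads (-1.38, SE 0.33, limma adjusted p = 0.0157), and rose in CD8 cells from 5663 and 3488 to 12785, 17976 and 14992 (1.76, SE 0.33, adjusted p = 0.00562). The difference between these effects was -3.14 (SE 0.46, adjusted p = 0.0447), and Prf1 was the 1 gene of the 22 that passed this interaction. The fall in CD4 cells was not called without either CD4 PBS library (adjusted p = 0.1003 and 0.104), nor the rise in CD8 cells without CD8 PBS replicate 3 (0.115).

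Zbtb7b encodes ThPOK, the factor that holds the CD4 fate against RUNX3. It was at 1004 and 1314 normalized reads in CD4 PBS and at 15.8 and 0 in CD8 PBS (-8.13, SE 1.03, limma adjusted p = 0.00207). In CD8 DTx it rose to 184, 94.4 and 306 (5.42, SE 0.94, adjusted p = 0.00396), which remained below every CD4 DTx library (592, 865 and 1375). Cd4, the transcript checked beside Zbtb7b, was at 413, 0 and 40.4 in these CD8 DTx libraries, listed in the same order. The rise was 2.98 in female libraries alone (adjusted p = 0.0933), 7.46 without CD8 PBS replicate 2 and 3.39 without CD8 PBS replicate 3, and the part of CD4 cells carried over in the sort was not tested.

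Itgae, the integrin chain CD103 and a known RUNX3 target in CD8 cells, had 8505, 8186 and 12594 normalized reads in Treg PBS against 791 and 130 for CD4 PBS (4.89, SE 0.76, limma adjusted p = 8.44e-04). It rose in CD4 cells after DTx to 2357, 9253 and 9008 (4.17, SE 0.76, adjusted p = 0.00345). In CD8 cells it was 8515 and 6974 in PBS and 1413, 5684 and 3033 in DTx (-1.41, SE 0.76, adjusted p = 0.260), lower in each DTx library without passing the test. The difference between these effects was 5.58 (SE 1.08, adjusted p = 0.179) and did not pass. CD8 PBS was above CD4 PBS by 4.58 (SE 0.84, adjusted p = 0.0195). In CD4 cells the call was lost without CD4 PBS replicate 3 (2.88, adjusted p = 0.0629), and in female libraries alone both Itgae calls were lost (0.147 for Treg PBS and 0.303 for CD4 DTx).

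Tcf7, which encodes TCF-1, a factor of naive and memory T cells, fell in Treg PBS against CD4 PBS (-5.16, SE 0.70, limma adjusted p = 3.56e-04), in CD4 cells after DTx (-2.71, 0.0242) and in CD8 cells (-2.79, 0.0254). The calls after DTx held in 8 of the 13 fits without 1 library in CD4 cells and in 9 in CD8 cells. Bcl11b, a T cell identity factor, and Il7r, the IL-7 receptor, fell in the Treg comparison (-2.02, adjusted p = 0.0314, and -1.57, 0.00355). Bcl11b lost its call without either CD4 PBS library or Treg PBS replicate 1 or 2, and Il7r without CD4 PBS replicate 2 (0.0551). In the same comparison Il2ra, Gzmb and Ctla4 rose by 6.41 (1.71e-05), 6.15 (4.63e-05) and 5.53 (6.74e-06).

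Of 18 lineage and Treg partner factors tested, 3 were higher and 8 lower in Treg PBS against CD4 PBS (median -1.001, beside 0.01 over all genes), where 13.5% of all genes were higher and 6.91% lower. After DTx 2 were higher and 5 lower in CD4 cells (median -0.90, beside -0.04), where 8.64% and 4.08% of all genes were, and 2 higher and 4 lower in CD8 cells (-0.53, beside -0.03), where 7.4% and 3.47% were. The count of lower genes fell to 5 without either CD4 PBS library in the Treg comparison and to 2 without CD4 PBS replicate 3 in CD4 cells. In CD8 cells it fell to 1 without CD8 PBS replicate 3 and to 2 without CD8 PBS replicate 2 or CD8 DTx replicate 1 or 2. The counts of higher genes after DTx ran from 1 to 3 in each cell type when 1 library was left out, with 1 called without either CD4 PBS library in CD4 cells and without CD8 PBS replicate 3 in CD8 cells, and 3 without CD4 DTx replicate 1 in both; with the replicate block 4 were higher in each. Bach2, a repressor of effector genes, fell in all 3, with -4.24 (limma adjusted p = 7.06e-04), -3.94 (0.00174) and -3.15 (0.00929). Lef1, the relative of TCF-1, fell too, with -2.96 (adjusted p = 4.58e-05), -2.28 (3.75e-04) and -2.005 (0.00162). Satb1, a chromatin organizer, fell in the Treg comparison (-3.90, 1.02e-04). Foxo1, which keeps T cells quiescent, fell in the Treg comparison (-1.30, adjusted p = 0.0290) and after DTx in CD4 (-1.85, 0.00675) and CD8 cells (-1.44, 0.0304). Lef1 kept its call in 13 of 13 fits without 1 library in each comparison. Bach2 lost its call in CD8 cells without CD8 PBS replicate 3 (0.127), and Foxo1 without CD4 PBS replicate 3 in CD4 cells (0.0961) and, in CD8 cells, without either CD8 PBS library or CD8 DTx replicate 1 or 2.

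Rises in this list were fewer. Ikzf2, the gene of Helios, was higher by 5.45 in Treg PBS (limma adjusted p = 1.67e-05) and by 1.93 in CD4 DTx (0.0114), where its 476 to 1335 normalized reads remained below the 7511 to 11018 of Treg PBS. Ikzf3, the gene of Aiolos, was higher by 1.90 in Treg PBS (5.08e-04) and by 1.60 in CD8 DTx (0.00370). Gata3, the type 2 master factor, rose by 2.05 in CD4 DTx (0.00620). The calls after DTx were lost for Ikzf2 without CD4 PBS replicate 3 (0.160), for Ikzf3 without CD8 PBS replicate 3 (0.0878) and for Gata3 without CD4 PBS replicate 2 (0.0757).

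The genes whose levels ran most like those of each member over the 13 libraries were found by Pearson's r of log2(value + 1), given without a p because libraries share groups and all points share the scaling. Runx2 was most like Xcr1 (r = 0.979), the receptor of the chemokine XCL1, followed by Cobll1 (0.971), Pde4a (0.962), the hexokinase gene Hk2 (0.960) and the transporter gene Abcb1a (0.951). Xcr1 was at 21.8 to 73.8 in CD4 PBS and 96.0 to 139 in CD8 PBS, and at 278 or above in all other libraries. This is the split of Runx2, and Xcr1 was chosen by its correlation with Runx2 in these same libraries. Runx3 was most like Xdh (0.937), the gene of xanthine dehydrogenase, then Rusc1 (0.928), Slc39a6 (0.924), the zyxin gene Zyx (0.923) and Pogk (0.917). Zyx ran from 5111 and 5145 in CD4 PBS to between 17259 and 36092 in the DTx groups.

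Runx1 had looser matches, with Gm14718 (r = 0.880), Abhd17b (0.867), Cyp2s1 (0.863), Myo6 (0.828) and Abhd17c (0.828). Cbfb was most like Tmx3 (0.918), Nipa2 (0.891), Lrrc59 (0.871), Canx (0.864), the gene of the chaperone calnexin, and Ehd4 (0.864). By rank correlation 2 of the 5 genes were the same for Runx1, 2 for Runx2, 1 for Runx3 and 1 for Cbfb, so single names in these lists depend on the measure.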

How the data were processed

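Libraries were made from sorted tumor T cells with a low-input SMART kit (the labels and the methods name different kits). According to the labels and methods, the authors trimmed reads with Cutadapt after FastQC, aligned them with hisat2 to NCBIM37 (mm9), kept uniquely mapped reads and deposited values normalized to library size and intergenic reads. The counter and its strand setting are not given in the sources used here. This deposited signal, called normalized reads here, has no fixed total per library: in each library all values (100%) were whole multiples, within 0.01 reads, of 1 step, and the reads recovered in this way numbered 15947556 to 34140486 per library. Columns were matched to samples by title.

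Values were tested as log2(value + 1) with limma 3.58.1 in R 4.3.3 (mean trend, 1 mean per group over all 13 libraries, Benjamini-Hochberg adjustment over the 12667 genes that reached 10 normalized reads in 2 or more libraries, called at an adjusted p under 0.05). The design had assumed another scale (per-total values) and the test was the same. A fold change on this scale understates changes of low genes. Fold bounds used a floor of 3 reads per library, and floors cover counting error only. Shares were compared with exact permutation tests. edgeR 4.0.16 (quasi-likelihood) and DESeq2 1.42.0 on the recovered reads, another pseudocount, no filter, quantile normalization, no trend, the compared groups alone, a replicate block, and leaving out each library were tried as alternatives. The code was tested on simulated data. Same-numbered CD8 DTx and CD4 DTx libraries deviated together (r = 0.360, 0.207 and 0.590 over 3 pairs), so replicate numbers were taken to pair the libraries of that comparison; for the others the pairing is unsettled and blocked values are given where they change a call. The study calls the replicates biological in its methods and isolated on separate days in a figure legend, without tying numbers to days. Nothing says which came from separate animals, so p-values measure the spread between these samples. The members, the gene lists and the rule for named genes (the members, the sort markers, up to 4 called genes of each list with the largest change in each direction and main comparison, Zbtb7b, Itgae, Il4, Ifng and Prf1 whatever their value, and the 5 genes with the highest Pearson correlation to each member; other list genes were named after their values were seen) were chosen with earlier results of these data known. Promoters came from RefSeq (GRCm38.p6) and exon lengths from GENCODE M21, and no coordinates were carried between builds.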

Additional observations from a re-analysis of the deposited data

Results flagged for a closer look

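Prf1 was picked out because its response to DTx differed between cell types in a direct test: the difference of the effects in CD4 and CD8 cells was -3.14 on the log2(value + 1) scale (SE 0.46, limma adjusted p = 0.0447), with all 3 CD4 DTx libraries below and all 3 CD8 DTx libraries above the PBS libraries of their cell type. The direction held in every alternative run, and the call was lost in edgeR (adjusted p = 0.0618), without the filter on low values (0.0555), without the mean trend (0.0890), with the compared groups alone (0.128), with sex as a term (0.0562) and in female libraries alone (0.546). It held in 3 of the 13 fits without 1 library, where the difference ran from -3.49 to -2.79.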

How the results depend on the processing

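The alternatives with a sex term and with the 8 female libraries alone were chosen after seeing the data; the others were planned. The sex term changed no call of the 4 genes. Scalings moved the median of all genes by at most 0.0771 (log2). The cause of the changes below was not tested, except that smaller fits have fewer libraries. Repeats of list genes covered only those chosen by the rule for named genes. These were the called genes with the largest changes, and Zbtb7b, Itgae, Il4, Ifng and Prf1. Of 1242 repeats of such genes where called, 1113 stayed called, 129 lost the call and 0 changed direction. Of 243 repeats where they were not called, 5 became called. Other called genes of the lists were not counted here.

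Treg PBS against CD8 PBS became a call for Runx2 with a pseudocount of 10 (2.34), quantile normalization (2.36), DESeq2 (2.36) and the compared groups alone (2.42). With the compared groups alone, calls were lost for Runx2 in Treg PBS (4.71) and CD4 DTx (5.40) against CD4 PBS and for Runx3 in both DTx groups against Treg PBS (0.99 and 0.99), and without a mean trend for Runx2 in CD8 cells (3.09, adjusted p = 0.0570). In female libraries alone, calls were lost for Runx3 in CD4 DTx against CD4 PBS (1.21), CD4 DTx against Treg PBS (0.999) and CD8 DTx against Treg PBS (1.001), and for Runx2 in CD8 cells (2.51). DESeq2 called Runx1 in CD8 PBS against CD4 PBS (-1.44). Differences near 0 changed sign: Cbfb in CD8 DTx against Treg PBS (-0.014) and Runx2 in CD8 DTx against CD4 DTx (0.0090) under quantile normalization, Cbfb in CD4 DTx against Treg PBS in edgeR (0.0078), Runx3 in CD8 DTx against CD4 DTx in DESeq2 (0.0098) and in females (0.0019), and Runx1 in CD4 DTx against CD4 PBS in females (0.13).

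With the replicate number as a block, calls were gained for Cbfb in Treg PBS against CD4 PBS (0.57, adjusted p = 0.0332), Runx1 (0.84, 0.0320) and Runx3 (0.61, 0.0336) in CD8 DTx against CD8 PBS, Runx1 in CD8 PBS against CD4 PBS (-1.41, 0.0153) and Runx1 in Treg PBS against CD8 PBS (0.995, 0.0103), and Runx1 in CD4 DTx against CD4 PBS changed sign (0.13). The block changed no other call of the 4 genes. It moved the genes called to 1739 in CD4 DTx against Treg PBS and 414 in CD8 DTx against CD4 DTx. In the comparisons other than the last, correlations of deviations between same-numbered libraries ran from -0.311 to 0.299 and were not above 0.1 in every pair of a comparison with 3 pairs. Replicates were taken on separate days, but no source used here says that a number marks a day; replicate 3 was male and highest in Fos and Jun in every group, so same-numbered libraries may share more than a number.

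Genes called with over 4-fold numbered 1292, 868, 692, 508, 624, 127 and 1192 (Treg PBS, CD4 DTx and CD8 DTx against their PBS Tconv group, CD4 DTx and CD8 DTx against Treg PBS, CD8 DTx against CD4 DTx, and Treg PBS against CD8 PBS). DESeq2 called 1543 in CD4 DTx against Treg PBS, 326 in CD8 PBS against CD4 PBS, 530 in CD8 DTx against CD4 DTx (edgeR 131) and 88 in the interaction, which held 10 without the filter, 10 under quantile normalization and 12 without a trend. With the compared groups alone, 983, 239, 640, 37 and 70 genes were called in CD4 DTx against CD4 PBS, CD8 DTx against CD8 PBS, CD4 DTx against Treg PBS, CD8 PBS against CD4 PBS and CD8 DTx against CD4 DTx. Female libraries alone gave 1005, 491, 169, 93, 152, 0, 0, 523 and 0 (limma), in the order Treg PBS, CD4 DTx and CD8 DTx against their PBS Tconv group, both DTx groups against Treg PBS, CD8 PBS against CD4 PBS, CD8 DTx against CD4 DTx, Treg PBS against CD8 PBS and the interaction.

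Leaving out 1 library gave, in that same order, 1189 to 3129, 658 to 1911, 202 to 2495, 567 to 1163, 708 to 1270, 57 to 161, 61 to 226, 762 to 2902 and 0 to 14 genes called. Runx1 ran from -0.48 to 0.19 in CD4 DTx against CD4 PBS and from -0.39 to 0.14 in CD8 DTx against Treg PBS. Runx2 ran from 2.69 to 3.48 in CD8 DTx against CD8 PBS, from 0.36 to 4.22 in CD8 PBS against CD4 PBS (called without CD4 PBS replicate 2), from 2.02 to 2.82 in Treg PBS against CD8 PBS (called without either CD4 PBS library) and from -0.32 to 0.15 in CD8 DTx against CD4 DTx. Runx3 ran from 1.14 to 1.43 in CD4 DTx against CD4 PBS, from 0.83 to 1.16 and 0.83 to 1.21 in CD4 DTx and CD8 DTx against Treg PBS, and from -0.16 to 0.22 in CD8 DTx against CD4 DTx. Cbfb ran from -0.18 to 0.089 and from -0.074 to 0.18 in CD4 DTx and CD8 DTx against Treg PBS, from -0.029 to 0.24 in CD8 DTx against CD4 DTx and from -0.073 to 0.29 in the interaction.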
